A study of Mus musculus with 18 samples.

Results

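The protein-coding genes whose symbols start with Timm, Tomm or Chchd encode subunits of the machinery that carries proteins into mitochondria and a family of small proteins with a CHCH domain, most of which this machinery delivers to the intermembrane space. The GENCODE M21 annotation holds 34 such genes. Of these, 33 are among the 34150 genes in the files, and Timm8a2 was not analysed here. Averaged over all libraries, 32 of the 33 reached 0.5 FPKM, a read count scaled to exon length and library size, and these were tested. The remaining gene, Tomm20l, was at 0.054 FPKM in the library HXP 4 and was listed at 0 in the other 17 libraries. The data are RNA sequencing of heart tissue in 18 libraries, 6 from HXP mice, 6 from MI mice (myocardial infarction) and 6 from control mice, and per the title of the series the HXP treatment was studied in mice with acute infarction. The labels do not say what HXP stands for, at which dose and times it was given, when infarction and collection took place, or the strain, sex and age of the mice. Whether each HXP mouse carried an infarct and what the control mice underwent is likewise not stated. Libraries are named below by group and number.

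Most mitochondrial proteins are made in the cytosol. They enter through the TOM complex of the outer membrane, in which receptors hand the chain to a pore. From there the TIM23 complex and its motor pull proteins with a presequence into the matrix, small TIM chaperones guide carrier proteins across the intermembrane space to the TIM22 complex, and an oxidation relay built on Chchd4 folds proteins with paired cysteines. Chchd3 and Chchd6 are subunits of MICOS, which holds the cristae junctions of the inner membrane, and the human forms of Chchd2 and Chchd10 are mutated in inherited neurological disease. Cardiac muscle is rich in mitochondria and depends on them for most of its ATP.

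Depth was 75.8 to 81.1 M recovered reads per library, and the lowest count of any tested gene of this set was 116 reads, for Timm10b. The heart muscle genes Myh6, Tnnt2 and Tnni3 were high in every library, with Myh6 between 1504 and 3787 FPKM. Another cardiomyocyte marker, Nkx2-5, was at 0.632 to 5.47 FPKM in HXP, 6.67 to 22.4 FPKM in MI and 5.55 to 17.4 FPKM in control. Every HXP library was thus below every MI and control library for Nkx2-5. The share of reads from mitochondrial genes was 20.5% to 45.5% in HXP, 20.4% to 33.2% in MI and 36.4% to 42.6% in control. The summed FPKM of 8 fibroblast and matrix markers ran from 89.2 to 2492 in HXP, 419 to 2641 in MI and 124 to 177 in control, and was lowest in HXP 6. All 8 lung epithelium markers were present in MI 5, with a sum of 1186 FPKM against at most 2.78 FPKM elsewhere, and 10 skeletal muscle markers summed to 112 FPKM in MI 4. In HXP 5 and HXP 6, genes with a GC content of 58% differed from genes of 42% by -0.38 and -0.56 log2 units, measured as deviations from the mean over all libraries, against -0.10 to 0.26 in the other 16. Each file header carries a number, here called the library number, and what it stands for is not stated. Cut at wide gaps, the library numbers fall into 3 runs. The largest run holds HXP 2 and HXP 5, MI 1, 2, 3, 4 and 6, and control 3, 4 and 6. The next run holds HXP 1, 3, 4 and 6 with 1 control library.

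Few of these genes differed between the groups with the values as deposited, and each that passed the test was lower. Against control hearts, Chchd10 and Timm23 fell in HXP hearts and Chchd3 fell in MI hearts. Both HXP differences missed the threshold with the run of library numbers as a term in the model. The Timm23 difference also missed it with the reads of near-identical copies of the gene added (limma adjusted p = 0.0831). More genes passed as lower once the libraries were rescaled. Under quantile normalization they were 16 in MI against control (17.3% of all genes) and 7 in HXP against control (5.05% of all genes). In HXP against control, 0 of 32 genes were higher and 2 lower at a limma adjusted p below 0.05, against 0.0948% higher and 0.219% lower among all 13710 genes tested, and at an unadjusted p below 0.05 the counts were 0 higher, against 27.7% of all genes, and 9 lower (28.1% of the set, against 5.45% of all genes). Without HXP 6 alone, 0 genes of the set were higher and 5 lower, against 28.1% higher and 2.78% lower among all genes. In MI against control, 0 genes were higher and 1 lower, against 40.1% higher and 3.21% lower among all genes, and without adjustment 0 were higher and 2 lower, against 50% and 5% of all genes. Without MI 4 and MI 5, 0 of all 13710 genes passed in limma in either direction. In HXP against MI, 0 genes were higher and 0 lower, as in the background of 0% in each direction by limma. Without adjustment 0 were higher, against 1.89% of all genes, and 7 were lower in the HXP group (21.9% of the set, against 11.9% of all genes). HXP was compared with MI and with control, so the comparisons share libraries. The values are from whole tissue, in which fewer cells of a type and less RNA per cell cannot be told apart.

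The median log2 fold change of the 32 genes was -0.07 in both HXP comparisons and -0.005 in MI against control. The medians over all genes were 0.16 in HXP against control, -0.12 in HXP against MI and 0.27 in MI against control. The fold change was negative for 24 of the 32 in HXP against control (75%, against 27.2% of all genes), for 22 in HXP against MI (68.8%, against 75.4%) and for 16 in MI against control (50%, against 19%). Directions close to 0 depend on the scaling, because the median of all genes moved by more than 0.1 with it. Under quantile normalization the median of all genes was -0.02, 0.04 and -0.07 in HXP against control, HXP against MI and MI against control, while the medians of the 32 genes were -0.22, 0.10 and -0.32. With that scaling 16 of the 32 passed the test as lower in MI than in control (17.3% of all genes) and 7 as lower in HXP than in control (5.05% of all genes), and none was higher. Beside these, cardiomyocyte markers summed to 10200 to 18470 FPKM in HXP, 11240 to 15690 FPKM in MI and 14490 to 16100 FPKM in control, and the part of cell composition in these results was not tested.

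**Figure D1:**
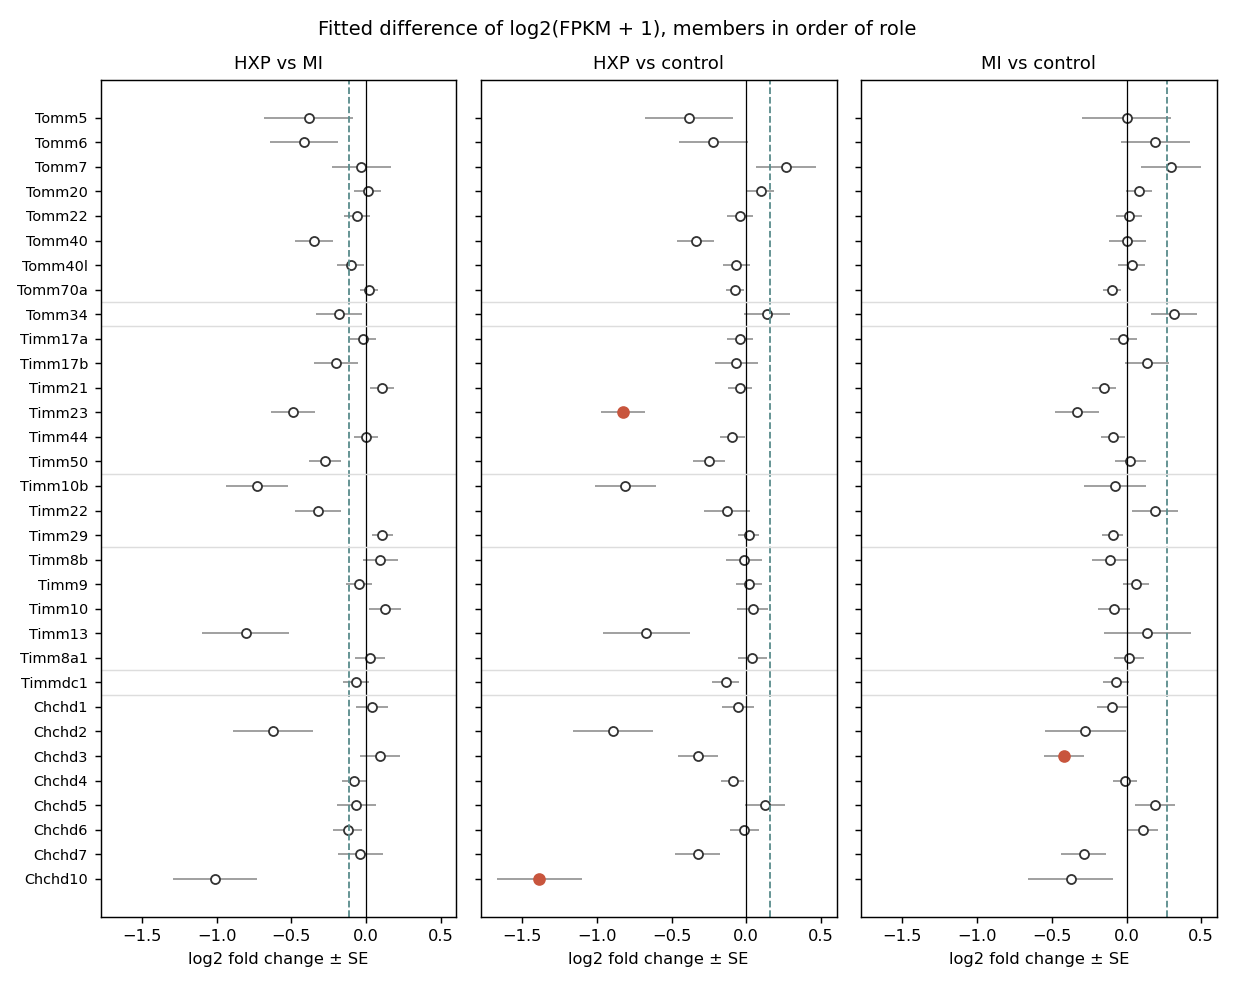
Log2 fold change of each gene with its standard error, in 3 panels for HXP against MI, HXP against control and MI against control, with the genes ordered by role. Filled points have a limma adjusted p below 0.05 and the dashed line is the median of all genes; the filled points are Chchd10 and Timm23 in HXP against control and Chchd3 in MI against control.

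Promoters are shown for the 3 genes that passed the test and for Timm10b, whose ratio to Timm10 differed in HXP, to set out what these genes have at their start. They are RefSeq sequences of GRCm38.p6, from 250 bases before to 50 bases after the RefSeq start, read 5′ to 3′ on the strand of the gene. That start is the GENCODE M21 gene start for Chchd10 and Chchd3, lies 7 bases inside the GENCODE gene for Timm23 and 389 bases inside it for Timm10b, whose whole window is thus within the gene as GENCODE draws it. Capitals mark the ETS motif CCGGAAG on either strand, the element bound by the GABP factor that controls many nuclear genes for mitochondrial proteins.
Chchd10, chr10:75932880-75933179, + strand: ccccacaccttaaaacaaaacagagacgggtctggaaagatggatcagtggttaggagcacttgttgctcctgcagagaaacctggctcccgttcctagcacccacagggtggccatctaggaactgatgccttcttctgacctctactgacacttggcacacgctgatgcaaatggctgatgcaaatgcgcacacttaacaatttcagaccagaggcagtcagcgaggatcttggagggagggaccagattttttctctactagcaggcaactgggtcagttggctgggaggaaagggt
Chchd3, chr6:33060211-33060510, - strand: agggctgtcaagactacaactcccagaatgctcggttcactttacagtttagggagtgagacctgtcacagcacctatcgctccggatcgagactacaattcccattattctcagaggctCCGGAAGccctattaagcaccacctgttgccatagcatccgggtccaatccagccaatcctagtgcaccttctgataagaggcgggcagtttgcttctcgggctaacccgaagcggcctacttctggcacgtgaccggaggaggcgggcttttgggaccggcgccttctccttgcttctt
Timm23, chr14:32201842-32202141, - strand: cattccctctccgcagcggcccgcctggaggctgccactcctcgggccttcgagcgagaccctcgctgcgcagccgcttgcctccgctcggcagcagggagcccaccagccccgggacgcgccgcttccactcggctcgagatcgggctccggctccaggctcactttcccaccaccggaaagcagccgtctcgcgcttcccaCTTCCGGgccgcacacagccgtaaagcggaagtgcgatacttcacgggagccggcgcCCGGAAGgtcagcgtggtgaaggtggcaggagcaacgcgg
Timm10b, chr7:105640195-105640494, + strand: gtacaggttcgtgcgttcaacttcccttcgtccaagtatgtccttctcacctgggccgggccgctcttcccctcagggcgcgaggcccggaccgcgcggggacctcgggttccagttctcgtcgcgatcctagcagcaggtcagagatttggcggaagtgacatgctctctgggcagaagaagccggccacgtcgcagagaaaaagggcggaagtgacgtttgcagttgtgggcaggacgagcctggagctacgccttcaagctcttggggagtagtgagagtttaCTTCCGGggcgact
The motif stood at 2 places in the Timm23 window, at 1 in those of Chchd3 and Timm10b, and at none in that of Chchd10. Among the 28 of 33 genes with a promoter in the table, 11 held it (39.3%, against 9.93% of the 27025 promoters of all genes). They were Chchd3, Chchd5, Timm10, Timm10b, Timm23, Timm29, Timm8b, Timmdc1, Tomm22, Tomm34 and Tomm70a, so the motif was found both in genes that passed a test and in genes that did not. The NRF1 motif was held by 3 (Chchd4, Timm8b and Tomm20, 10.7% against 5.19% of all genes). The motif of ERR was found in Timm8b alone (3.57%, against 0.466%) and that of YY1 in Timm50 alone (3.57%, against 0.755%). Both strands were searched for each motif, and a match is a run of letters and not a measured binding site. For each motif the background was the 27025 genes with a promoter, not limited to protein-coding genes or to those tested in heart. The shares of the set and of this background are thus not from like genes.

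Levels differed widely between the genes. FPKM is scaled to the merged length of all annotated exons, which was 518 bases for Timm8b and 9777 bases for Tomm70a. The order of the genes therefore also depends on the annotation, and on reads shared with near-identical copies. In control hearts the means ran from 2.25 FPKM for Timm9 to 100.5 FPKM for Chchd10. The 4 highest were Chchd10, Chchd3 (98.8 FPKM), Chchd2 (95.5 FPKM) and Timm8b (88.8 FPKM), and the ranges of their 6 control libraries overlapped. Within the TOM complex the small subunit Tomm5 was highest in control, at 71.6 FPKM, followed by the receptor Tomm22 at 33.2 FPKM, the receptor Tomm70a at 18.3 FPKM and Tomm7 at 17.45 FPKM. The pore Tomm40 (9.885 FPKM), its paralog Tomm40l (9.83 FPKM) and the receptor Tomm20 (9.69 FPKM) lay close together, with overlapping ranges. In TIM23, control means were 60.1 FPKM for the channel Timm23 and 20.9 FPKM for Timm21, and lay between 7.18 FPKM (Timm17b) and 14.9 FPKM (Timm44) for the other 4. The spread over all 18 libraries was widest for Timm10b, with a 10.3-fold difference between its highest and lowest library, followed by Chchd10 at 7.81-fold, Tomm5 at 6.47-fold, Timm13 at 5.91-fold and Chchd2 at 5.14-fold. It was narrowest for Tomm70a, at 1.22-fold.

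**Figure D2:**
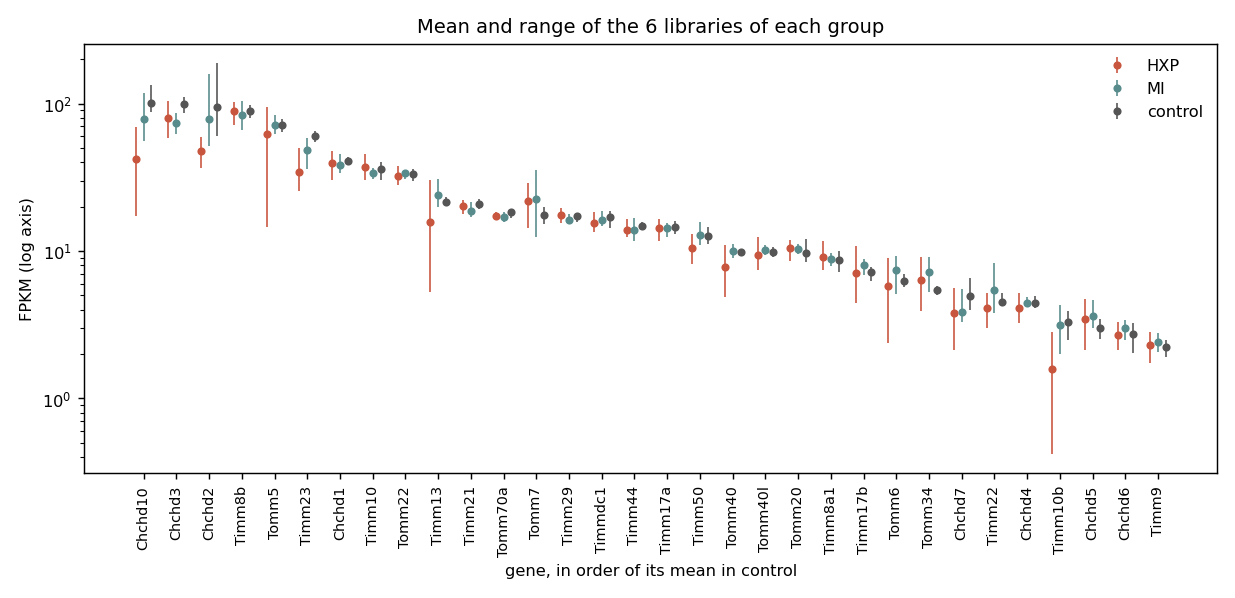
FPKM of each gene on a log axis, with the mean of the 6 libraries as a point and their range as a line, for HXP, MI and control. Control means run from 2.25 FPKM for Timm9 to 100.5 FPKM for Chchd10, and the HXP ranges of Timm10b, Chchd10, Timm13 and Tomm5 are wide.

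With the values as deposited, none of the 8 tested TOM genes passed the test in a comparison. The smallest limma adjusted p was 0.104 in HXP against control, 0.298 in HXP against MI and 0.186 in MI against control. Under quantile normalization Tomm20, Tomm22, Tomm40 and Tomm70a passed as lower in MI against control (17.3% of all genes). Tomm40 also passed as lower in HXP against control with that scaling (5.05% of all genes). The channel gene Tomm40 (ENSMUSG00000002984, GRCm38 chr7:19701313-19715438, - strand) had a lowest, median and highest value of 4.87, 7.92 and 11.01 FPKM in HXP, 9.02, 9.89 and 11.1 FPKM in MI, and 9.39, 9.95 and 10.3 FPKM in control. HXP 3, 4, 5 and 6 were below every MI and every control library, while HXP 1 was above every control library. The log2 fold change in HXP against control was -0.34 with a standard error of 0.13 (limma adjusted p = 0.104), in HXP against MI it was -0.35 with the same error (limma adjusted p = 0.298), and without HXP 5 and HXP 6 they were -0.14 and -0.14. Its receptors were flatter. Tomm20 had 8.62, 10.6 and 11.97 FPKM in HXP, 9.61, 10.3 and 11.2 FPKM in MI and 8.475, 9.32 and 12.01 FPKM in control, with all 3 ranges overlapping. Tomm22 had 28.0, 31.6 and 37.7 FPKM in HXP, 30.6, 34.2 and 35.5 FPKM in MI and 29.9, 33.3 and 36.0 FPKM in control. The narrowest gene of all, Tomm70a, had 16.3, 17.2 and 18.4 FPKM in HXP, 15.7, 16.8 and 18.3 FPKM in MI and 16.85, 18.6 and 19.2 FPKM in control, and the groups overlapped.

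The small TOM subunits showed 2 patterns in single libraries. Tomm5, which supports assembly of the pore complex, was at 14.65 FPKM in HXP 4 (982 reads), which is 26.7% of the next lowest library, HXP 3, at 54.9 FPKM. The other 17 libraries held 54.9 to 94.9 FPKM, and the group means were 62.2 ± 26.8 in HXP, 71.8 ± 7.29 in MI and 71.6 ± 5.499 FPKM in control (SD, n = 6 each). Among the 5633 genes that averaged 5 FPKM or more, Tomm5 was the 1 gene below 50% of the lowest other library in HXP 4. Each of the other 17 libraries also held at least 1 such gene, with 9 in HXP 5 and 142 in HXP 6, so a count of 1 is not unusual. Tomm6, another small subunit, was at 4.75, 2.92 and 2.38 FPKM in HXP 4, 5 and 6, below every MI and control library (5.14 to 9.27 and 5.68 to 6.95 FPKM), and at 6.95 to 8.90 FPKM in HXP 1, 2 and 3. In Tomm6, 76% of the exon bases are shared with Gm21981 on the same strand, at a mean of 6.99 FPKM, so its level is uncertain. With the reads of Gm21981 added, HXP 4 was at 18.7 FPKM, inside the control range of 15.1 to 24.8 FPKM. HXP 5 and HXP 6 stayed below that range, at 11.9 and 9.82 FPKM. The log2 fold change in HXP against control was 0.08 on that sum (limma adjusted p = 0.853), against -0.22 without it. Tomm7 ranged from 14.2 to 28.7 FPKM in HXP, 12.4 to 35.2 FPKM in MI and 15.3 to 19.75 FPKM in control. Tomm40l shares 64.3% of its exon bases with Nr1i3 on the opposite strand, which was at 0.399 FPKM. Tomm34, a cytosolic cochaperone that assists import, had 3.94, 6.50 and 9.11 FPKM as lowest, median and highest in HXP, 5.25, 7.21 and 9.08 FPKM in MI and 5.03, 5.51 and 5.76 FPKM in control. MI 1 to 5 were above every control library and MI 6 was inside the control range, with a log2 fold change of 0.32 in MI against control (SE 0.16, limma adjusted p = 0.098), while HXP 5 and HXP 6 were below every control library and HXP 1, 2 and 3 above.

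In the TIM23 complex, with the values as deposited, 1 of 6 genes fell in HXP hearts against control and none passed in the other comparisons. All 6 fold changes were negative in HXP against control, against 27.2% of all genes. Those of Timm17a, Timm17b and Timm21 were within their standard error of 0. Timm23 (ENSMUSG00000013701, chr14:32180162-32201898, - strand), which forms the core of the presequence translocase with the Timm17 proteins, had a lowest, median and highest value of 25.6, 34.6 and 49.97 FPKM in HXP, 35.8, 50.55 and 58.7 FPKM in MI, and 55.0, 60.9 and 65.2 FPKM in control. Every HXP library was below every control library. All HXP libraries but HXP 1 were also below every MI library, and all MI libraries but MI 3 were below every control library. The means were 34.3 ± 8.90 in HXP, 48.1 ± 8.75 in MI and 60.1 ± 3.64 FPKM in control (SD, n = 6 each). The log2 fold change was -0.82 in HXP against control (SE 0.15, limma adjusted p = 0.0363), -0.49 in HXP against MI (SE 0.15, limma adjusted p = 0.251) and -0.33 in MI against control (SE 0.15, limma adjusted p = 0.0706). In MI against control, Timm23 passed as lower under 10 of 37 other settings. Quantile normalization was among them, at -0.59 (limma adjusted p = 0.0202), where 17.3% of all genes were called lower. With each library left out in turn, the difference between HXP and control stayed past the threshold in 7 of 18 fits (without MI 2, 3, 4 or 5 or HXP 1, 4 or 6) and not in the other 11, at limma adjusted p-values of 0.00303 to 0.11 and fold changes of -0.94 to -0.75. With the run of library numbers as a covariate the fold change was -0.88 and did not pass (limma adjusted p = 0.154). Of the 32 genes, 3 had every HXP library below every control library (Timm23, Chchd10 and Chchd2), against 0.569% of all genes, and 0 had every HXP library above (1.13%). None was wholly below (0.306%) or above (0.117%) MI in HXP, or wholly below (1.39%) or above (27.9%) control in MI, with the share of all genes in parentheses.

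Timm23 has copies elsewhere in the genome with which it can share reads. Gm10273 on chromosome 10, annotated as protein coding, is 99.9% identical over 1121 aligned bases, and the processed pseudogenes Gm10171 on chromosome 1 and Gm10233 on chromosome 14 are 100% identical over 628 bases. Their means over all libraries were 26.0, 28.4 and 23.7 FPKM. The copies did not pass the test in HXP against control, with log2 fold changes of -0.10, -0.03 and 0.02 (limma adjusted p = 0.63, 0.903 and 0.95). With the reads of the copies added to those of Timm23 and the sum divided by the exon length of Timm23, the level was 70.9 ± 17.3 in HXP, 78.2 ± 9.47 in MI and 97.6 ± 4.03 FPKM in control (SD, n = 6 each). On that sum the fold change in HXP against control was -0.49 (SE 0.13, limma adjusted p = 0.0831), which no longer passed, and in MI against control it was -0.32 (SE 0.13, limma adjusted p = 0.048), which did. HXP 1 held 100.9 FPKM of the sum, inside the control range of 91.6 to 102.7 FPKM, and the other 5 HXP libraries and all MI libraries were below every control library. The size of the difference in Timm23 between HXP and control is therefore uncertain.

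**Figure D3:**
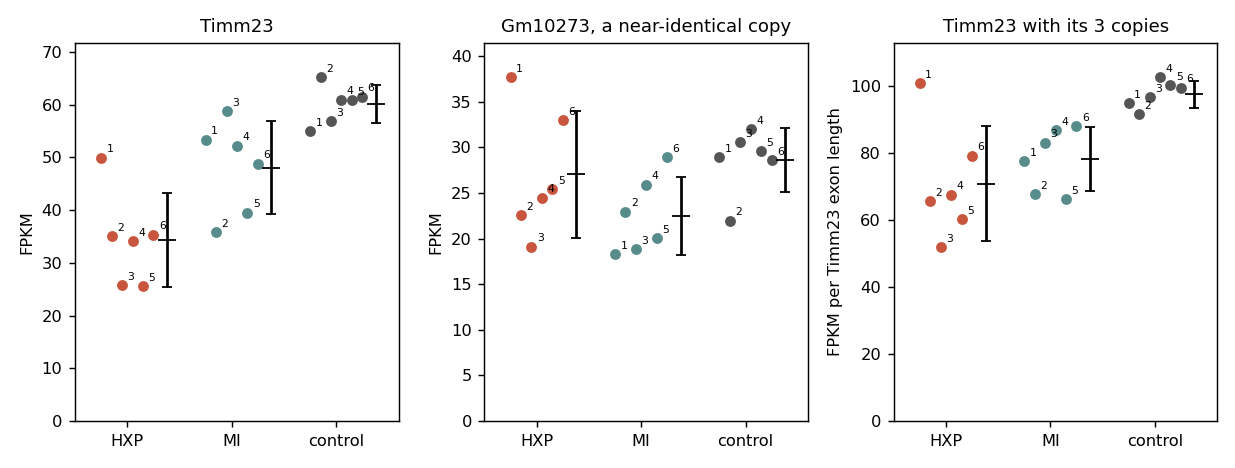
FPKM per library of Timm23, of its near-identical copy Gm10273 and of Timm23 with the reads of 3 copies added, for HXP, MI and control; the bar is the mean ± SD. Every HXP point of Timm23 lies below the control points, while HXP and control overlap for Gm10273 and, through HXP 1, for the sum.

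The other TIM23 genes did not pass the test with the values as deposited. Under quantile normalization Timm21, Timm44 and Timm50 passed as lower in MI against control (17.3% of all genes). Timm50 also passed as lower in HXP against control with that scaling (5.05% of all genes). Timm50, the receptor that takes presequences from TOM, had 8.22, 10.6 and 13.0 FPKM as lowest, median and highest in HXP, 11.02, 12.8 and 15.65 FPKM in MI and 11.2, 12.3 and 14.5 FPKM in control. HXP 4, 5 and 6 were below every MI and every control library, and the fold change was -0.25 in HXP against control (SE 0.10, limma adjusted p = 0.124) and -0.27 in HXP against MI (SE 0.10, limma adjusted p = 0.309). Timm44, which anchors the import motor, had 12.4, 13.5 and 16.4 FPKM in HXP, 11.7, 13.7 and 16.8 FPKM in MI and 13.8, 15 and 15.7 FPKM in control. Timm17a had 11.8, 14.0 and 16.6 FPKM in HXP, 12.4, 14.7 and 15.6 FPKM in MI and 13.0, 14.9 and 16.0 FPKM in control, with the 3 groups overlapping. Its X-linked paralog Timm17b had 4.46, 6.99 and 10.8 FPKM in HXP, 6.93, 8.35 and 8.76 FPKM in MI and 6.28, 7.30 and 7.76 FPKM in control, with HXP 5 and HXP 6 lowest and HXP 1 highest of all libraries. Timm21, a subunit that contacts TOM, lay between 17.0 and 22.5 FPKM in every library. Timmdc1, which assists the assembly of respiratory complex I, lay between 13.4 and 18.7 FPKM.

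With the values as deposited, none of the 3 TIM22 genes and 5 tested small TIM genes passed the test in a comparison. Under quantile normalization Timm10b, Timm29 and Timm8b passed as lower in MI against control (17.3% of all genes). Timm10b and Timm13 passed as lower in HXP against control with that scaling (5.05% of all genes). Timm10b, which binds TIM22 at the intermembrane space side (ENSMUSG00000089847, chr7:105640056-105643637, + strand), had a lowest, median and highest value of 0.422, 1.65 and 2.82 FPKM in HXP, 2.0, 3.09 and 4.325 FPKM in MI, and 2.51, 3.40 and 3.90 FPKM in control. HXP 6, HXP 5 and HXP 4 were lowest, at 0.422, 0.767 and 1.30 FPKM, and 5 of the 6 HXP libraries were below every control library. The log2 fold change was -0.81 in HXP against control (SE 0.21, limma adjusted p = 0.081) and -0.73 in HXP against MI (SE 0.21, limma adjusted p = 0.248), and these understate the change since the values are near the added 1 FPKM. Without HXP 5 and HXP 6 the fold change in HXP against control was -0.50 and passed the test, at a limma adjusted p of 0.026. In HXP 4, 5 and 6 the small TIM gene Timm13 was likewise low, at 10.1, 7.61 and 5.24 FPKM. Over the groups Timm13 had 5.24, 13.8 and 30.4 FPKM as lowest, median and highest in HXP, 19.8, 23.7 and 31.0 FPKM in MI and 20.3, 21.6 and 23.2 FPKM in control. HXP 1 was above the control range, HXP 2 inside it and HXP 3 to 6 below it. Its fold change was -0.67 in HXP against control (SE 0.29, limma adjusted p = 0.13) and -0.19 without HXP 5 and HXP 6 (limma adjusted p = 0.458).

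For Timm10 and Timm9, which form the main chaperone of the intermembrane space, the highest library was 1.51 and 1.61 times the lowest. Timm10 had 30.3, 38.1 and 45.6 FPKM in HXP, 30.6, 34.5 and 36.55 FPKM in MI and 30.4, 36.4 and 40.1 FPKM in control. Timm9 had 1.75, 2.31 and 2.825 FPKM in HXP, 2.06, 2.40 and 2.775 FPKM in MI and 1.92, 2.275 and 2.50 FPKM in control, so the groups of both genes overlapped. Timm22, the channel for carrier proteins, had 2.99, 4.04 and 5.23 FPKM in HXP, 3.83, 4.575 and 8.28 FPKM in MI and 4.21, 4.36 and 5.15 FPKM in control, with MI 4 and MI 5 highest, the libraries that held skeletal muscle or lung markers. Timm8a1 lay between 7.26 and 11.6 FPKM, Timm8b between 65.7 and 104.8 FPKM and Timm29, a further TIM22 subunit, between 15.35 and 19.45 FPKM over all libraries.

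Ratios of related genes within a library do not depend on how libraries are scaled to each other. Of 6 pairs in 3 comparisons, the ratio of Timm10 to Timm10b alone passed. It was 16.2, 16.5, 15.2, 23.5, 52.4 and 98.85 in HXP 1 to 6, between 8.395 and 15.7 in MI and between 9.58 and 15.6 in control. On the log2 scale the means were 4.81 ± 1.11 in HXP, 3.49 ± 0.40 in MI and 3.46 ± 0.27 in control (SD, n = 6 each). The difference was 1.36 in HXP against control and 1.33 in HXP against MI, each with an exact two-sided permutation p of 0.00433 and an adjusted p of 0.039 over the 18 tests. HXP 5 and HXP 6 held the highest values, and without them the differences were 0.68 (exact permutation test, adjusted p = 0.0857) and 0.65 (adjusted p = 0.129), so neither passed. With each library left out in turn, the exact permutation test stayed past the threshold in 6 of 18 runs in HXP against control (without MI 6 or HXP 1 to 5) and in 5 of 18 in HXP against MI (without HXP 1 to 5), with adjusted p-values of at most 0.104 and 0.127 in the others. In MI against control the ratio of Chchd3 to Chchd6 had a log2 difference of -0.57 (exact permutation p = 0.00866, adjusted p = 0.052), with means of 4.62 ± 0.30 in MI and 5.20 ± 0.32 in control. The ratio of Tomm40 to Tomm40l differed by -0.31 in HXP against control (exact permutation p = 0.0281, adjusted p = 0.127), and the pairs Timm17a and Timm17b, Timm8a1 and Timm8b, and Chchd2 and Chchd10 had adjusted p-values of 0.288 or more. The pair of Tomm20 and Tomm20l was not used, since Tomm20l was listed at 0.

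Among the 8 CHCH genes, with the values as deposited, Chchd10 fell in HXP against control, Chchd3 fell in MI against control and none passed in HXP against MI. Chchd10 (ENSMUSG00000049422, chr10:75933130-75937747, + strand), an intermembrane space protein highly expressed in heart, had a lowest, median and highest value of 17.2, 43.9 and 69.6 FPKM in HXP, 56.1, 69.25 and 118 FPKM in MI, and 87.4, 92.7 and 134 FPKM in control. Every HXP library was below every control library, and HXP 5 and HXP 6, at 20.9 and 17.2 FPKM, were the lowest of all. MI 3 and MI 6 were inside the control range and the other 4 MI libraries below it. The means were 42.1 ± 20.8 in HXP, 78.8 ± 22.4 in MI and 100.5 ± 17.6 FPKM in control (SD, n = 6 each). The log2 fold change was -1.39 in HXP against control (SE 0.28, limma adjusted p = 0.0453), -1.01 in HXP against MI (SE 0.28, limma adjusted p = 0.248) and -0.37 in MI against control (SE 0.28, limma adjusted p = 0.276). With each library left out in turn, the difference between HXP and control stayed past the threshold in 4 of 18 fits (without MI 3 or HXP 1, 4 or 6) and not in the other 14, at limma adjusted p-values of 0.00789 to 0.125 and fold changes of -1.56 to -1.17. With the run of library numbers as a covariate it was -1.41 and did not pass (limma adjusted p = 0.154). Chchd10 has a GC content of 58.2% in its longest transcript. In HXP against control its fold change was -0.91 without HXP 5 and HXP 6 (limma adjusted p = 0.00857) and -1.42 after the trend with GC content was removed (limma adjusted p = 0.00453). In the largest run of library numbers, with 2 HXP and 3 control libraries, it was -1.54 (limma adjusted p = 0.166), and for Timm23 it was -0.97 there (limma adjusted p = 0.15).

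Chchd2 (ENSMUSG00000070493, chr5:129881156-129887470, - strand), the paralog of Chchd10 and a regulator of respiration, was in a like order but did not pass with the values as deposited. Chchd2 passed as lower in HXP against control under 9 of 37 other settings, quantile normalization (5.05% of all genes) among them. Its lowest, median and highest values were 36.3, 46.8 and 59.4 FPKM in HXP, 51.4, 66.4 and 159 FPKM in MI, and 60.5, 76.8 and 187 FPKM in control. Every HXP library was below every control library, MI 3 and control 5 stood far above the rest of their groups, and the fold change in HXP against control was -0.89 (SE 0.27, limma adjusted p = 0.0881). Chchd10 was also highest in control 5 and MI 3, at 134 and 118 FPKM. Among the 5633 genes that averaged 5 FPKM or more, 4 were more than 1.5 times higher in both control 5 and MI 3 than in each other library, and these were Chchd2, Cox5b, Exosc3 and Nkx2-5. Without MI 3 the fold change of Chchd2 in HXP against MI was -0.40 (limma adjusted p = 0.533), against -0.62 with it (limma adjusted p = 0.334), and without control 5 the fold change in HXP against control was -0.68 (limma adjusted p = 0.151).

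**Figure D4:**
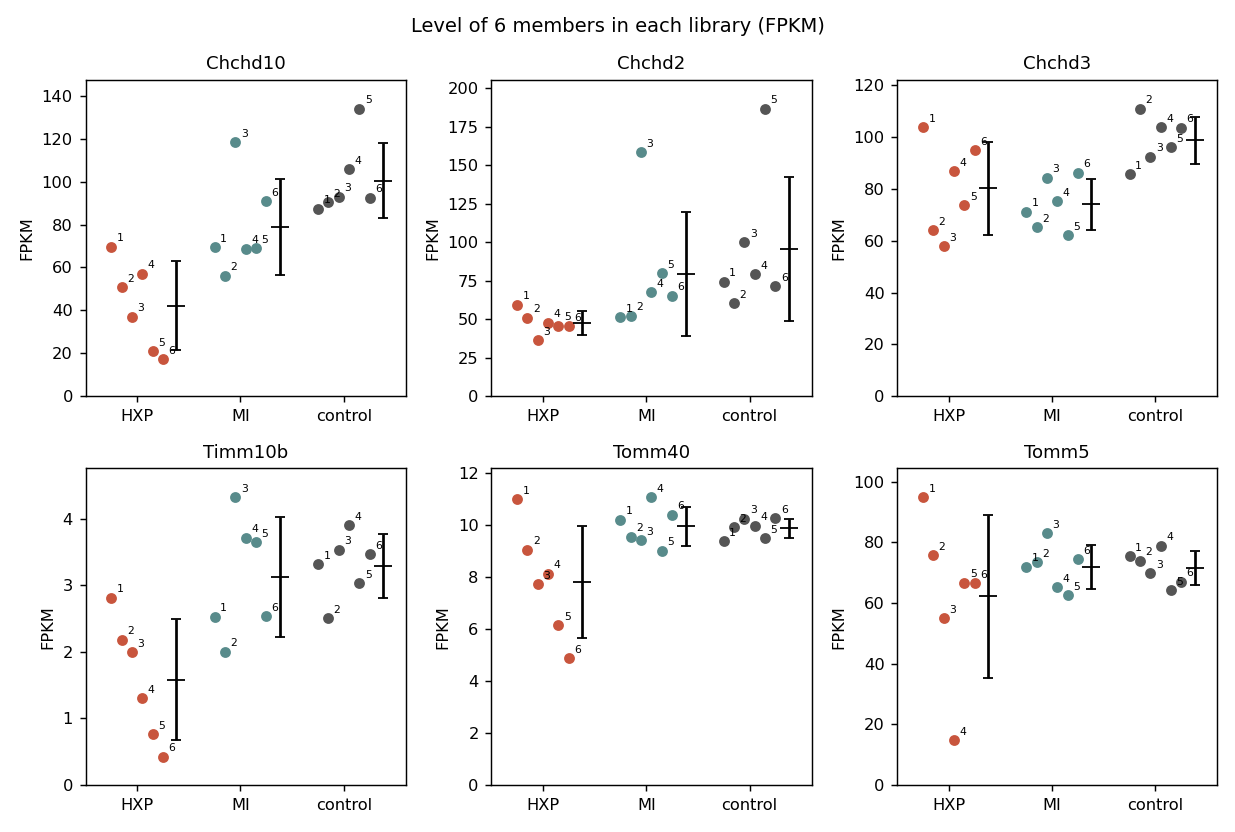
FPKM in each library of Chchd10, Chchd2, Chchd3, Timm10b, Tomm40 and Tomm5, as dots for HXP, MI and control with the mean ± SD of each group. The HXP dots of Chchd10 and Chchd2 all lie below the control dots, the MI dots of Chchd3 lie below the control dots but for MI 6, and a single HXP dot of Tomm5 lies at 14.65 FPKM.

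Chchd3 (ENSMUSG00000053768, chr6:32790976-33060260, - strand), a MICOS subunit, had a lowest, median and highest value of 57.96, 80.3 and 104 FPKM in HXP, 62.15, 73.3 and 86.3 FPKM in MI, and 85.8, 99.9 and 111 FPKM in control. MI 6 overlapped the control range and the other 5 MI libraries lay below it, while HXP 1, HXP 4 and HXP 6 were inside it and HXP 2, 3 and 5 below. The means were 80.3 ± 17.98 in HXP, 74.1 ± 9.87 in MI and 98.8 ± 9.13 FPKM in control (SD, n = 6 each). The log2 fold change was -0.42 in MI against control (SE 0.13, limma adjusted p = 0.0238), -0.32 in HXP against control (SE 0.13, limma adjusted p = 0.121) and 0.09 in HXP against MI (SE 0.13, limma adjusted p = 0.72). In MI against control it was -0.36 without MI 4 and MI 5 (limma adjusted p = 0.0841) and -0.39 in the largest run of library numbers (limma adjusted p = 0.0688), in which 5 MI and 3 control libraries remain. It also missed the threshold without control 2, MI 2 or MI 5 (limma adjusted p = 0.052, 0.051 and 0.0602). Its MICOS paralog Chchd6 had a much lower level, with 2.135, 2.66 and 3.32 FPKM in HXP, 2.51, 3.035 and 3.42 FPKM in MI and 2.04, 2.68 and 3.26 FPKM in control, and its groups overlapped.

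The remaining CHCH genes did not pass the test with the values as deposited. Under quantile normalization Chchd4 and Chchd7 passed as lower in MI against control (17.3% of all genes). Chchd4, the oxidoreductase of the intermembrane space relay, had 3.245, 4.05 and 5.15 FPKM as lowest, median and highest in HXP, 4.215, 4.29 and 4.85 FPKM in MI and 4.08, 4.50 and 4.97 FPKM in control. Chchd1, a subunit of the mitochondrial ribosome, averaged 39.6 ± 6.75 in HXP, 38.2 ± 4.57 in MI and 40.7 ± 2.01 FPKM in control (SD, n = 6 each). Chchd7 averaged 3.82 ± 1.14 in HXP, 3.89 ± 0.860 in MI and 4.945 ± 0.890 FPKM in control, and Chchd5 averaged 3.47 ± 0.986 in HXP, 3.61 ± 0.624 in MI and 3.025 ± 0.340 FPKM in control (SD, n = 6 each). In HXP against control, the fold changes of Chchd7 and Chchd5 were -0.33 (SE 0.15, limma adjusted p = 0.147) and 0.13 (SE 0.13, limma adjusted p = 0.49), and the ranges overlapped in both genes.

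The lowest and highest values were spread unevenly over the libraries, both in this set and among all genes. HXP 6 held the lowest value of all 18 libraries for 9 of the 32 genes (28.1%), against 33.8% of all genes tested. HXP 3 held it for 6 (18.75%, against 4.86% of all genes), HXP 4 and HXP 5 for 4 each (12.5%, against 5.80% and 3.98%), and HXP 1 and HXP 2 for none. HXP 1 held the highest value for 7 (21.9%, against 8.33% of all genes). The low values in HXP 4, 5 and 6 stood in genes such as Timm13, Timm50, Tomm6 and Tomm40, whose longest transcripts have GC contents of 58.2%, 58.3%, 55.8% and 54.1%. Timm10b, with 48.2%, was low in the same libraries. After the trend with GC content was removed, the fold change in HXP against control was -0.70 for Timm13 (limma adjusted p = 0.0322), -0.48 for Tomm40 (limma adjusted p = 0.0141) and -0.99 for Timm10b (limma adjusted p = 0.00651), and each passed the test. For Timm50 and Tomm6 it was -0.28 (limma adjusted p = 0.105) and -0.33 (limma adjusted p = 0.129), and neither passed. Removing the trend also raised the share of all genes called lower in HXP against control, from 0.219% to 4.08%. Under median-ratio scaling, with no GC step, Timm13, Tomm40, Timm10b and Timm50 passed as lower (4.3% of all genes). The part of GC content in the low values was not tested.

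**Figure D5:**
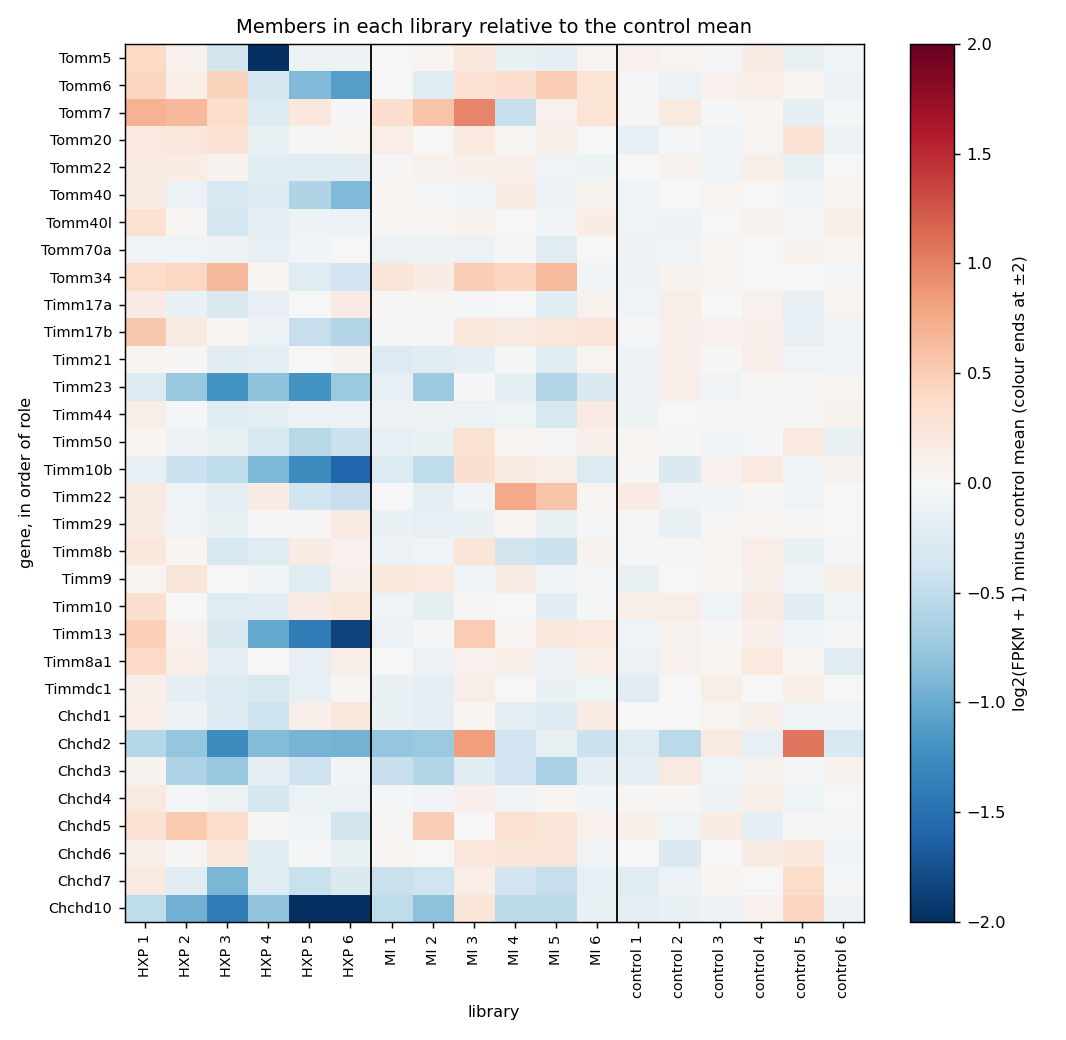
Log2(FPKM + 1) of each gene in each library minus its mean in control, for HXP, MI and control libraries from left to right, with colours ending at -2 and 2. Chchd10, Timm13 and Timm10b are most negative in HXP 5 and HXP 6, Tomm5 is negative in HXP 4, and most other genes are close to 0.

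Further genes of the import pathway are given as 8 lists, in which 47 of 49 listed symbols were tested. In MI against control 4 rose (8.51%, against 40.1% of all genes) and 7 fell (14.9%, against 3.21%). None of these calls remained without MI 4 and MI 5, where 0 of all 13710 genes passed in either direction, so the loss is not particular to these genes. Those that rose were Mtch1, an outer membrane protein related to the insertase Mtch2 (34.0 ± 8.45 in MI and 17.35 ± 1.15 FPKM in control with SD, limma adjusted p = 0.0143 at a log2 fold change of 0.90), the protease Htra2 (0.51, SE 0.13, limma adjusted p = 0.0146), the cytochrome oxidase assembly factor Cox19 (0.45) and the outer membrane assembly factor Mtx1 (0.33). Those that fell were the inner membrane peptidase subunits Immp1l (-0.38) and Immp2l (-0.36), the matrix peptidase Mipep (-0.33), the chaperonin Hspd1 (-0.32), the motor chaperone Hspa9 (-0.28), the MICOS subunit Apool (-0.26) and the Mtx1 partner Mtx2 (-0.24). For Hspa9, the mortalin that drives the TIM23 motor, the means were 117 ± 12.7 in MI and 142 ± 9.73 FPKM in control (SD, n = 6 each, SE 0.10, limma adjusted p = 0.0393). The genes that rose and fell thus stood side by side in the lists of processing peptidases (1 rose and 3 fell of 7) and of outer membrane assembly (2 rose and 1 fell of 7).

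In HXP against MI and in HXP against control, 0 of the 47 pathway genes passed in limma, and at an unadjusted p below 0.05, 7 were lower (14.9%, against 11.9% of all genes) and 1 higher (2.13%, against 1.89%) in HXP against MI. In HXP against control 8 were lower (17%, against 5.45%) and 4 higher (8.51%, against 27.7%). The smallest limma adjusted p in HXP against control belonged to Dnajc19 (0.0528), a motor cochaperone, with 3.76 ± 1.19 in HXP and 6.78 ± 0.598 FPKM in control (SD, n = 6 each) and a log2 fold change of -0.74 (SE 0.17). The next were the cytochrome oxidase assembly factor Coa6 (-1.22, SE 0.31, limma adjusted p = 0.076), the motor subunit Pam16 (-1.02, SE 0.27, limma adjusted p = 0.0867) and Romo1 (-1.53, SE 0.46, limma adjusted p = 0.0881). The protease Htra2 had the same limma adjusted p of 0.0881 and went the other way, with a log2 fold change of 0.42 (SE 0.13). For Romo1, which is linked to TIM21 in human cells, the means were 13.55 ± 13.8 in HXP and 28.5 ± 1.67 FPKM in control (SD, n = 6 each), so the spread within HXP was as large as its mean. The list of the presequence motor had 6 of 7 negative fold changes in HXP against control with a median of -0.19, and the list of other proteins with paired CX9C motifs had 8 of 15 with a median of -0.05, against a median of 0.16 over all genes.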

How the data were processed

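RNA of heart tissue was extracted with Trizol, depleted of ribosomal RNA and made into libraries with a kit that does not mark strand as labelled, per the labels' protocols. The authors deposited 1 value per Ensembl gene and library. The file headers name no unit, and the deposited values are taken as FPKM because, once multiplied by exon length, they came out as whole numbers of a smallest unit, read as 1 read. Within a tolerance of 0.1 read this held for 97.7% to 98.1% of the 9034 to 11025 values looked at in each library, and it gave the depths stated above. GRCm38 and limma are named, without version or role, per the submitters' processing notes. Aligner and counting tool: not given in the sources used here.

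IDs were matched to GENCODE M21 (34097 of 34150). The scale of analysis was log2(FPKM + 1), and 13710 genes averaging 0.5 FPKM or more entered. The limma package (3.58.1, under R 4.3.3) fitted 1 model of the 3 groups with a mean-variance trend, no robust prior and no covariate. Tests were two-sided, a Benjamini-Hochberg adjusted p below 0.05 over all genes tested was the threshold, and each fold change is a difference of log2(FPKM + 1), which understates the change of low genes. Ratios of 6 pairs were tested by exact two-sided permutation of 6 against 6 libraries (scipy 1.17.1), adjusted over 18 tests. The labels give 1 number per library and do not say that each library is 1 mouse, so the error behind a p-value is that between libraries, which may be technical. At more than 100 reads for every tested gene, that spread and not counting sets the precision. The fit was checked on simulated data.

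The genes, lists, tests and most alternatives were chosen with earlier results of these data known. Values in every group are given for genes called in a comparison, for the 3 smallest p of each comparison, for the core of each complex and, in the pathway lists, for up to 4 genes with the smallest p per list, with others given by range or mean. Tomm5, Tomm6, Timm13 and the copies of Timm23 were singled out after their values were seen. The numbers in the library names, which are not the library numbers of the file headers, were not taken to pair the libraries. Libraries with the same number in their names deviated together with correlations from -0.31 to 0.64, the highest for HXP 6 and MI 6. Copies were genes with a transcript at 95% identity or more over at least 200 bases of the longest transcript of the gene. The GC content of a gene is that of its longest transcript. Alternatives covered scaling, filters, the added constant, GC content and exon length (lowess, span 0.3), the library-number run, single libraries and the sets MI 4 and MI 5 and HXP 5 and HXP 6. An alternative with the reads of copies added, and the GC correction combined with another scaling or with fewer HXP libraries, were chosen after seeing the data. Protein sequences were not used here. Python 3.11.15 with matplotlib 3.10.9 drew the figures.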

Additional observations from a re-analysis of the deposited data

Results flagged for a closer look

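Of 96 groups of 6 libraries (32 genes in 3 groups), 3 held a library far from the other 5, where chance alone gives about 1 in 20 groups. Chchd2 was at 158.6 FPKM in MI 3, against 51.4 to 79.8 FPKM in the other MI libraries. The same gene was at 186.9 FPKM in control 5, against 60.5 to 100.2 FPKM in the other control libraries. Timm29 was at 15.62 FPKM in control 2, against 17.47 to 17.97 FPKM in the other control libraries, a gap smaller than its range in HXP (15.6 to 19.45 FPKM) or MI (15.35 to 17.85 FPKM). Control 5 is in another run of library numbers than MI 3, and what the 2 libraries share was not tested.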

How the results depend on the processing

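Each count of genes and each fold change was recomputed under other settings, and a sign change was counted where the gene passed in either setting or both values exceeded their standard error. Of the values of single genes, 3334 stayed on the same side of the threshold (3046 with the same sign, and 288 with another sign where neither value passed and at least 1 was within its standard error), 122 passed only under the other setting, 43 no longer passed and 32 changed sign. In HXP against MI, 0 genes were called in either direction under every setting run, except for 1 lower gene (Timm23) without HXP 1. The numbers of genes called lower in MI against control and in HXP against control, which were 1 and 2, became 16 and 7 under quantile normalization, 10 and 7 under median-ratio scaling, 9 and 7 under scaling to non-mitochondrial genes, 13 and 6 with the GC content trend removed, 11 and 7 with the exon length trend removed, 17 and 7 with the GC trend removed and median-ratio scaling, and 15 and 13 with the GC trend removed and without HXP 5 and HXP 6. The share of all genes called lower moved with them, from 3.21% and 0.219% to between 8.05% and 17.3% in MI against control and between 3.5% and 11.2% in HXP against control. They were 2 and 0 with the compared groups only, 0 and 0 in the largest run of library numbers, 0 and 1 without MI 4 and MI 5, 1 and 4 without HXP 5 and HXP 6, 1 and 1 with MI 1 and MI 2 averaged, and 2 and 1 with the reads of near-identical copies added. They were 1 and 0 with no filter on low values, 1 and 0 with the run as a covariate, and 1 and 0 with the replicate block, which changed no other count. With the block, Chchd10 and Timm23 in HXP against control each had a limma adjusted p of 0.0748. Numbers called higher became 1 in MI against control with the compared groups only and without HXP 5 and HXP 6 (Tomm34 in both) and 2 in HXP against control without HXP 5 and HXP 6 (Chchd5 and Tomm34). Over the settings that leave out 1 library each, genes called lower ranged from 0 to 2 in MI against control, 0 to 1 in HXP against MI and 0 to 5 in HXP against control, and genes called higher from 0 to 1 in MI against control and 0 to 0 in the HXP comparisons. The Chchd3 call in MI against control was lost without control 2, MI 2 or MI 5. The calls in HXP against control held in 4 (Chchd10) and 7 (Timm23) of 18 such settings, at fold changes of -1.56 to -1.17 and -0.94 to -0.75. Counts over all genes moved too: in MI against control from 5494 higher and 440 lower to 0 and 0 without MI 4 and MI 5 and to 1810 and 2371 under quantile normalization, and in HXP against control from 13 and 30 to 3855 and 381 without HXP 6 and to 5603 and 364 without HXP 5 and HXP 6.

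In MI against control, fold changes turned negative for several genes under quantile normalization, the GC trend removed, that trend with median-ratio scaling, and that trend without HXP 5 and HXP 6. In that order they were -0.31, -0.31, -0.36 and -0.31 for Tomm40, -0.29, -0.33, -0.39 and -0.33 for Timm50, -0.27, -0.22, -0.30 and -0.22 for Tomm22, -0.26, -0.20, -0.20 and -0.19 for Chchd6, and -0.18, -0.12, -0.13 and -0.12 for Chchd5. Tomm22 was at -0.27 under median-ratio scaling, -0.21 under scaling to non-mitochondrial genes and -0.22 with the exon length trend removed, and Chchd6 at -0.11 under median-ratio scaling and -0.15 with the length trend removed. Timm22 was at -0.18 and Tomm20 at -0.23 under quantile normalization, and Tomm20 at -0.21 with the GC trend removed and median-ratio scaling. In HXP against control, Tomm20 was at -0.0789, -0.11 and -0.10 under the 3 settings with the GC trend removed, in the order above. In HXP against MI, Tomm34 was at 0.0932 with the GC trend removed and without HXP 5 and HXP 6. The cause of these changes was not tested.

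The log2 ratio of Timm10 to Timm10b no longer passed in HXP against MI and HXP against control without MI 4 and MI 5 (1.17 and 1.36), without HXP 5 and HXP 6 (0.65 and 0.68), with MI 1 and MI 2 averaged (1.40 and 1.36) and in the largest run (1.31 and 1.58), where fewer libraries are tested. It ranged from 0.97 to 1.51 and from 0.99 to 1.53 over the settings that leave out 1 library. The ratio of Chchd3 to Chchd6 in MI against control passed with 1 FPKM added (-0.53) and ranged from -0.67 to -0.46 over those settings. The ratio of Tomm40 to Tomm40l passed in HXP against MI and in HXP against control without HXP 3, and ranged from -0.3467 to -0.16 and from -0.3789 to -0.1922.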
